A study of Rattus norvegicus with 4 samples.

Results

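Genes of the circadian clock and its output were examined in myometrium, which is uterine smooth muscle, of ovariectomized rats. The genes were the 8 named Per2, Nr1d1, Nr1d2, Dbp, Bhlhe40, Tef, Hlf and Nfil3, and every probe set that the platform annotation gave exactly 1 of these symbols was taken. This gave 11 of the 8799 probe sets on the array, for 7 of the 8 genes; no probe set carried the symbol Nfil3. All animals were 60 days old and had lost their ovaries a week before treatment. They received estradiol benzoate, a slowly released ester of estradiol, at 10 µg per kg under the skin, or the vehicle, and the uterine horns were taken 6 or 24 h later. Each of the 4 groups (vehicle or estradiol benzoate, at 6 or 24 h) was measured on 1 Affymetrix rat oligonucleotide array with RNA pooled from 6 animals. There is therefore no replicate error, animals within a pool cannot be told apart, and no difference within a time was tested. In a tissue pool, fewer cells of a type and less RNA per cell cannot be told apart. The labels give the hours since treatment and no clock hour of collection.

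Before the clock genes are described, the labels at 6 h need a caution. Igf1, Pgr, S100g and Hsd11b2, known estrogen-induced genes of the rat uterus, were all at least 2-fold higher with estradiol at 24 h, and all 4 were at least 2-fold lower on the array labelled estradiol than on the array labelled control at 6 h. Directions at 6 h are therefore given for the arrays as labelled. The 24 h arrays were scanned on 1 day and the 6 h arrays on another, so an effect of time and of scan day cannot be told apart, and the wash record of the 24 h control ended in a communication error. Median signals lay between 143 and 169 units, the scanner signal after the authors' scaling of every array to a common mean. A signal counts as measured above the array's floor, its 40th percentile (89.5 to 108 units), and a difference counts when it reaches 2-fold, a log2 difference of 1, with the brighter array above its floor. A fold is a lower bound, written as at least, where the dimmer array was at its floor. All 8 smooth muscle markers that the array names were above the signal floor, with summed signals between 63359.8 and 97930 units per array.

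The circadian clock is a feedback loop of transcription that runs in most cells, the uterine muscle included. The activators CLOCK and BMAL1 bind E-box sequences and switch on their own repressors, among them Per2, as well as the nuclear receptors Nr1d1 and Nr1d2 (REV-ERB alpha and beta), which in turn repress Bmal1. The same activators drive output factors. Dbp, Tef and Hlf are related bZIP proteins that activate genes through D-box sequences, Nfil3 represses through the same sequences, and Bhlhe40 (DEC1) is a repressor that competes for E-boxes and also answers to many stimuli outside the clock. Most of these transcripts rise and fall daily, so their level in a sample depends on the phase at which the tissue was taken.

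Promoters are shown first for the 4 genes that passed the 2-fold rule at both times and for Bhlhe40, which had the opposite signs, because the clock acts on its targets through short DNA motifs. They are from RefSeq (rat build GRCr8), 250 bases upstream of an annotated start site, 5′ to 3′ on the gene's strand. A promoter entry was present for 7 of the 8 genes, with 8 entries in all; Hlf had none. Capitals mark matches, on either strand, to the E-box CACGTG, its variant CACGTT, the D-box written as TTACGTAA or TTATGTAA, or the nuclear receptor hexamer AGGTCA. Per2 at chr9:99496994-99497243 on the minus strand, a repressor, Nr1d1 at chr10:84229455-84229704 on the minus strand and Nr1d2 at chr15:9954784-9955033 on the plus strand, both nuclear receptors, Dbp at chr1:105312006-105312255 on the plus strand, an output activator, and Bhlhe40 at chr4:143174200-143174449 on the plus strand read as follows.
Per2: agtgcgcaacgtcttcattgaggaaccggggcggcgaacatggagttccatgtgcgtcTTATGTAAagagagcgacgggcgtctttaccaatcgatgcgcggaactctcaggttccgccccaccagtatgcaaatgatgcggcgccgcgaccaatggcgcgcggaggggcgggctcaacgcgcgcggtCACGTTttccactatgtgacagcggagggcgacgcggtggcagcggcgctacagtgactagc
Nr1d1: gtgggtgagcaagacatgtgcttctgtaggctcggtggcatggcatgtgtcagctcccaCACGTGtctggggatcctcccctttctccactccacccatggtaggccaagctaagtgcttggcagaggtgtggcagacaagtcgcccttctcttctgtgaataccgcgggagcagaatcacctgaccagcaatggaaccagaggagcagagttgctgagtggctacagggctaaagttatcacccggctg
Nr1d2: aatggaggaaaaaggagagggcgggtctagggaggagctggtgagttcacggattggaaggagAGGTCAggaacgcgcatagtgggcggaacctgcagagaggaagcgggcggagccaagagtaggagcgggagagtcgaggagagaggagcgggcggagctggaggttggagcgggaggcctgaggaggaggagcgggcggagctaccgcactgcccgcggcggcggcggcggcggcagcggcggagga
Dbp: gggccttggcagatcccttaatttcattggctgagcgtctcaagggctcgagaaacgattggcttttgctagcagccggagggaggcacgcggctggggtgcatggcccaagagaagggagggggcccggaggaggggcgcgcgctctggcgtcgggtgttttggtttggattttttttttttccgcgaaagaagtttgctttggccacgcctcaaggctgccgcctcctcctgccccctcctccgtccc
Bhlhe40: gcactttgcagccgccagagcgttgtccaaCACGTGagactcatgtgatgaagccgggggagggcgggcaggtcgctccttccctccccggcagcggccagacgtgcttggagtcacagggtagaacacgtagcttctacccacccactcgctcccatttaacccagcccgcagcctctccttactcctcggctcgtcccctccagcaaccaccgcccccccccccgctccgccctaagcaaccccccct
In Per2 the D-box match lay at positions -192 to -185 from the start site and the variant E-box match at -62 to -57. Nr1d1 held an E-box at -191 to -186 in the entry printed, and its other entry held CACGTT read on the opposite strand at -174 to -169. Nr1d2 held AGGTCA at -187 to -182, Bhlhe40 an E-box at -220 to -215, and Tef an E-box at -198 to -193. The entries of Dbp and Nfil3 held none of these letters in this window. Among all 33469 promoter entries, 5.59% held CACGTG, 4.07% held CACGTT, 0.932% the D-box and 14.1% AGGTCA. The palindromic estrogen response element, which overlaps the hexamer, was found in 0.0239% of entries and in none of these genes. A match is a description of the sequence and not a bound site.

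**Figure D1:**
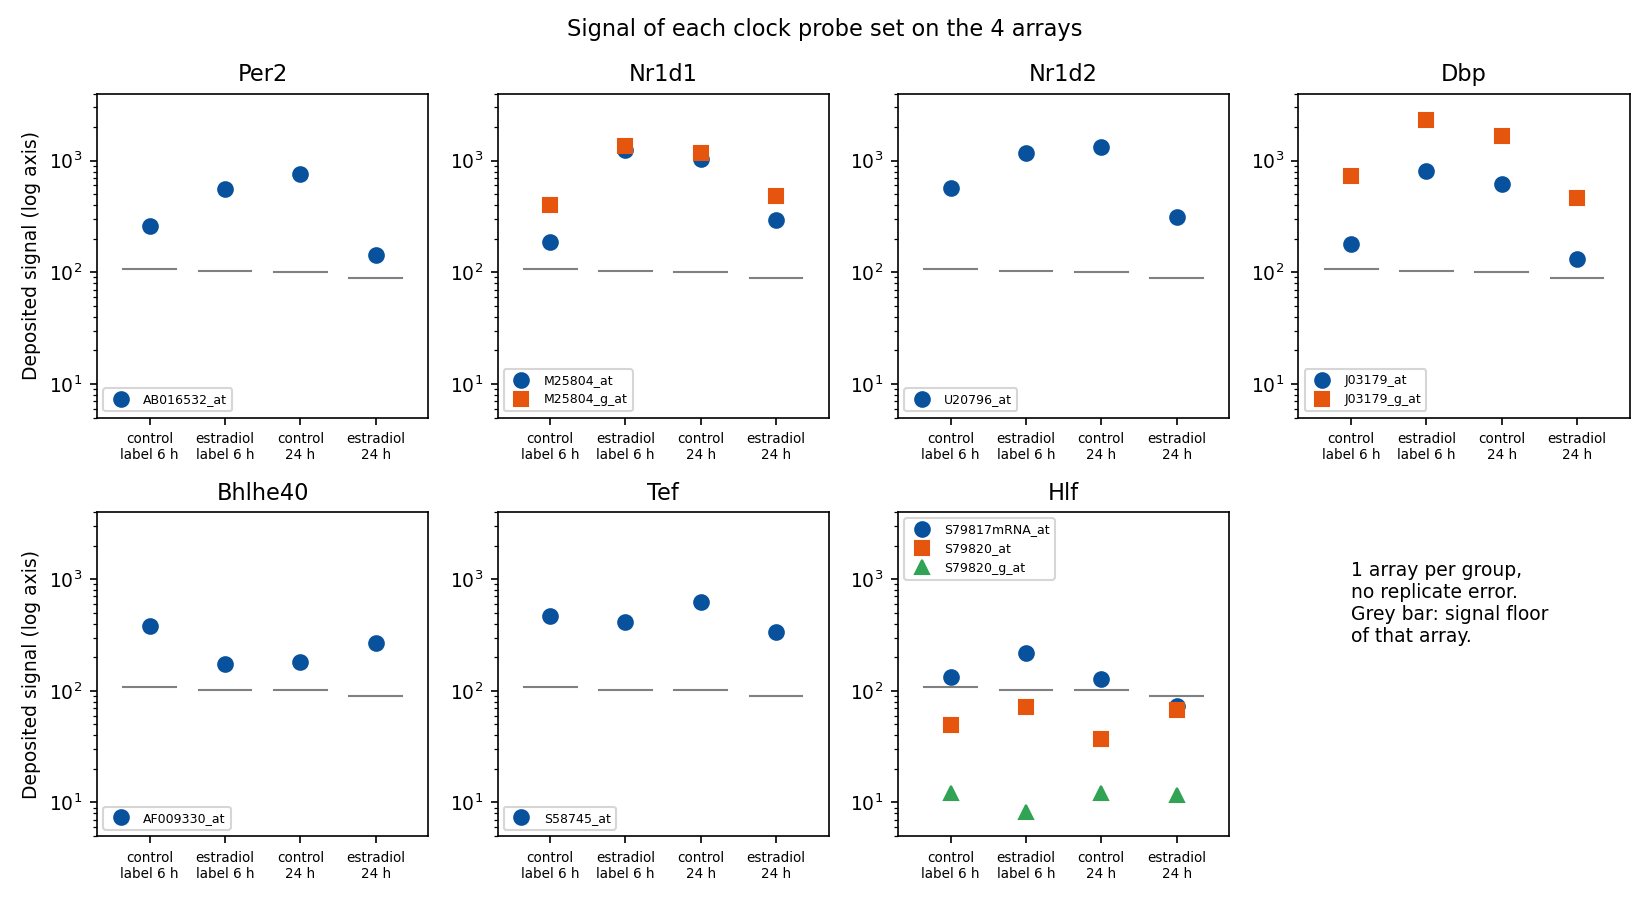
Deposited signal (vertical log axis) of each of the 11 probe sets on the 4 arrays (horizontal axis), 1 panel per gene, with a grey bar at each array's signal floor. Per2, Nr1d1, Nr1d2 and Dbp were bright on the 24 h control and on the array labelled estradiol at 6 h, for example 756 and 558 units for Per2, and dim on the other arrays, at 143 and 259 units.

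Among the repressors, Per2 had a signal of 143 units with estradiol and 756 without it at 24 h, and of 558 with the estradiol label and 259 with the control label at 6 h. The 24 h control was the brightest array for Per2 and the 24 h estradiol array the dimmest. Nr1d2 read 311 with estradiol and 1316 without it at 24 h, and 1170.1 with the estradiol label and 566 with the control label at 6 h. It had the same order of the 4 arrays as Per2. Nr1d1 was measured by a pair of probe sets designed from the same cDNA. The brighter read 487 with estradiol and 1181 without it at 24 h, and 1352 with the estradiol label and 400.1 with the control label at 6 h. The dimmer read 297, 1028, 1252 and 187 units in that order of arrays. Both put the array labelled estradiol at 6 h highest and the array labelled control at 6 h lowest, a different order from that of Per2 and Nr1d2. The orders differ only in pairs of arrays under 2-fold apart. The array labelled estradiol at 6 h minus the 24 h control was 0.20 on the log2 scale for Nr1d1, -0.44 for Per2 and -0.17 for Nr1d2. The 24 h estradiol array minus the array labelled control at 6 h was 0.28, -0.86 and -0.86 in that order of genes.

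Among the D-box activators, Dbp was also measured by a pair of probe sets. The brighter read 464 units with estradiol and 1674 without it at 24 h, and 2329 with the estradiol label and 725 with the control label at 6 h. The dimmer read 130.4, 618, 807 and 179 units in that order. Both put the array labelled estradiol at 6 h highest and the 24 h estradiol array lowest, each by less than 2-fold from the next array. Tef, the relative of Dbp, spanned a narrower range, with 339.6 units with estradiol and 621 without it at 24 h, and 418 with the estradiol label and 472 with the control label at 6 h. Hlf was dim. Its brightest probe set read 73.6 units with estradiol, which was not above the floor of 89.5, and 129 without it at 24 h, 219 with the estradiol label and 133 with the control label at 6 h. The other Hlf probe sets, at 36.7 to 72.3 and 8.27 to 12.1 units, were above the floor on 0 arrays and give no level. Bhlhe40 ran the other way, with 269 units with estradiol and 179 without it at 24 h, and 173 with the estradiol label and 382 with the control label at 6 h. Its brightest array was thus the array labelled control at 6 h, on which Nr1d1 was dimmest.

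The comparison at 24 h asks what differed a day after estradiol. Of the 7 genes, 4 were at least 2-fold lower with estradiol and 0 were higher. Per2 was 5.30-fold lower, Nr1d2 4.24-fold, Dbp 3.60-fold and Nr1d1 2.43-fold. By the dimmer probe sets Dbp was 4.74-fold and Nr1d1 3.46-fold lower, so both probe sets of each gene passed. Tef was 1.83-fold lower and Hlf at least 1.44-fold lower, while Bhlhe40 was higher by a log2 difference of 0.58, all under the 2-fold rule. Over all 3619 genes measured, 8.68% were 2-fold higher and 8.04% lower, or 314 and 291 genes, and scaling by the median of each array made this 388 and 205. Ordered from the most negative difference, Per2 stood at place 9 of the 3619 genes, Nr1d2 at 22, Dbp at 36 and Nr1d1 at 134. The median log2 difference of the 7 genes was -1.28, beside -0.17 for all genes, the latter being the log2 ratio of the floors. The genes were chosen with earlier results of these data known, so places and medians, here and at 6 h, are descriptions and not tests. Among 6 epithelial markers 5 were at least 2-fold higher in the same estradiol pool, with summed signals of 3605 units against 1157 in the control. The part of these cells in the clock differences was not tested. Replacing the 24 h control by the array labelled control at 6 h was tried after seeing the data. Then 0 of the 7 genes were 2-fold lower, beside 9.28% of all genes, and Nr1d1 had a log2 difference of 0.28. Against the mean of both controls 3 were lower, beside 5.22% of all genes, and Nr1d1, at -0.50, was not. Both alternatives use the array labelled control at 6 h, whose label the estrogen targets go against.

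At 6 h, which asks for the early response, 4 of the 7 genes read at least 2-fold above the control label on the array labelled estradiol, and 1 was lower. Nr1d1 was 3.38-fold higher, Dbp 3.21-fold, Per2 2.15-fold and Nr1d2 2.07-fold. By the dimmer probe sets Nr1d1 was 6.71-fold and Dbp 4.51-fold higher. Bhlhe40 was 2.21-fold lower. Hlf was 1.64-fold higher and Tef 1.13-fold lower, both under the rule. Over all genes 6.47% were 2-fold higher and 5.08% lower, and the medians were 1.05 for the 7 genes and -0.06 for all. Nr1d2 and Per2 lay close to the threshold: with a pseudocount of 50 units in place of the floor their log2 differences were 0.99 and 0.98. That left 2 genes higher, beside 6.6% of all genes, and 0 lower, beside 5.89%. When the 24 h control replaced the array with the control label, 0 of the 7 genes passed in either direction. Of all genes, 7.52% were then higher and 2.13% lower. The differences were -0.44 for Per2, -0.17 for Nr1d2, 0.48 for Dbp, 0.20 for Nr1d1 and -0.06 for Bhlhe40.

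**Figure D2:**
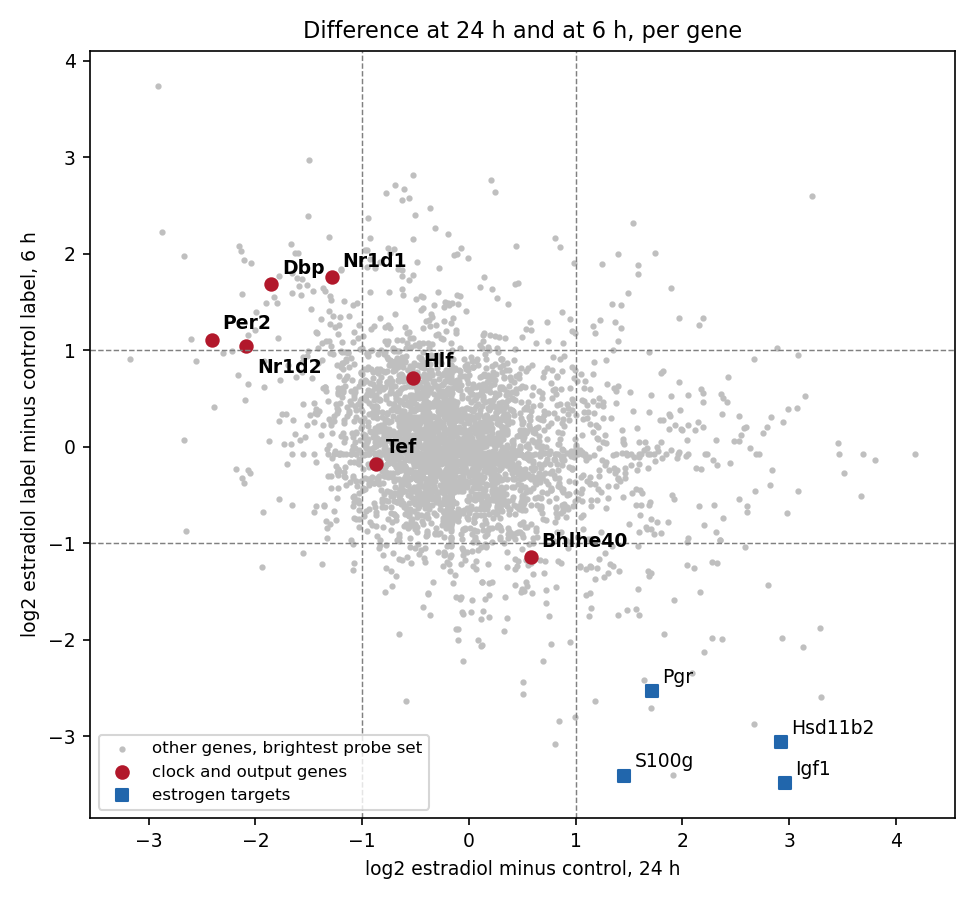
Log2 difference at 24 h (horizontal axis, estradiol minus control) against that at 6 h (vertical axis, estradiol label minus control label) for each measured gene by its brightest probe set, with dashed lines at 2-fold. Dbp, Nr1d1, Nr1d2 and Per2 lie in the upper left, lower at 24 h and higher at 6 h, and the 4 estrogen targets lie in the lower right.

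The 24 h and 6 h comparisons share no array, so their directions can be set side by side. Per2, Nr1d1, Nr1d2 and Dbp were 2-fold lower at 24 h and 2-fold higher at 6 h, as were 68 of the 3619 genes in all, or 1.88%. These 68 were 23.4% of the genes lower at 24 h and 29.1% of those higher at 6 h. Igf1, Pgr, S100g and Hsd11b2 were among 54 genes, 1.49%, that were higher at 24 h and lower at 6 h. Bhlhe40 had these same signs, though under 2-fold at 24 h. Genes with the same direction at both times were fewer, 6 lower (0.166%) and 21 higher (0.58%), and none of the clock genes was among them. These signs rest on the 6 h labels, which the estrogen targets go against. With the 6 h sign turned, the 68 genes, Per2, Nr1d1, Nr1d2 and Dbp included, are lower at both times, the 54 are higher at both, and the 6 and 21 are opposite. Time of collection and treatment are both possible sources of differences in clock genes, and their parts in this pattern were not tested.

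Across time, the 24 h control was at least 2-fold brighter than the array labelled control at 6 h for 4 of the 7 genes, against 7.63% of all genes, and dimmer for 1, against 9.62%. Nr1d1 was 2.95-fold higher at 24 h, Per2 2.92-fold, Nr1d2 2.33-fold and Dbp 2.31-fold, and Bhlhe40 was 2.13-fold lower. Between the arrays labelled estradiol, the direction was the opposite: 5 genes were lower at 24 h than at 6 h, against 9.45% of all genes, and 0 were higher, against 5.44%. Dbp was 5.02-fold lower, Per2 3.91-fold, Nr1d2 3.77-fold, Nr1d1 2.78-fold and Hlf at least 2.44-fold. Hlf was under 2-fold with the mean of its probe sets. Bhlhe40 was 1.56-fold higher and Tef 1.23-fold lower, under the rule. These comparisons use the same 4 arrays as those within a time and add no independent sign, and their directions rest on the 6 h labels too. With those labels turned, 0 of the 7 genes were 2-fold apart between the 24 h control and the array labelled estradiol at 6 h. Of all genes, 7.52% were higher and 2.13% lower on that 6 h array. It was also 0 between the 24 h estradiol array and the array labelled control at 6 h. There 5.75% of all genes were higher and 9.28% lower on the 24 h array. With shares this small, 0 of 7 does not set the clock genes apart. Between the 2 arrays labelled estradiol, scaling by the median changed the called genes in all from 197 higher and 342 lower to 330 higher and 202 lower.

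A single limma fit of all 4 arrays, with treatment and time as terms and 1 residual degree of freedom, called 0 of 6157 probe sets for treatment and 0 for time after Benjamini-Hochberg adjustment. At an unadjusted p under 0.05 it held 104 and 220 probe sets, and 0 of the 9 clock probe sets above the floor in either. The treatment coefficient, on the log2 scale, was -0.65 ± 0.93 (SE) for Per2, -0.08 ± 0.94 for Dbp and 0.24 ± 0.82 for Nr1d1, with an adjusted p of 0.999 for each in limma. The fit has no term for opposite directions at the 2 times, so these go into its residual. Its treatment term takes the 6 h labels as given, which the estrogen targets go against. The fit was not run with those labels turned, so its treatment coefficients and calls hold for the given labels only.

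Other parts of the clock were less well covered. Of 32 further clock gene symbols looked for, with Arntl as another symbol of Bmal1, 12 were on the array. Of these, 9 were above the floor on at least 1 array, and Rorb, Timeless and Vip were not. At 24 h 2 of the 9 were 2-fold lower and 0 higher, beside 8.04% and 8.68% of all genes. These 2 were Wee1 and Csnk1d, whose probe sets disagree. At 6 h 1 was higher and 0 lower, beside 6.47% and 5.08% of all genes. The median log2 difference of the 9 was -0.50 at 24 h and -0.18 at 6 h, beside -0.17 and -0.06 for all genes. The activator Bmal1 read 143 units with estradiol and 244 without it at 24 h, and 114 with the estradiol label and 129 with the control label at 6 h. It was thus 1.70-fold lower at 24 h and 1.13-fold lower at 6 h, under the rule, and its other probe set was above the floor on 1 array. Bhlhe41 (DEC2), the relative of Bhlhe40, did not share its signs: it read 121 against 193 units at 24 h and 255 against 178 at 6 h, 1.60-fold lower and 1.43-fold higher.

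Csnk1d, a kinase that marks PER proteins for turnover, was 4.14-fold lower with estradiol at 24 h by its brightest probe set, at 282 against 1167 units, while its other probe set read 554 against 564 units. The probe sets of Csnk1d disagree, so its level is uncertain. Wee1, a mitotic kinase with clock-driven transcription, was 2.08-fold lower at 24 h, at 179 against 373 units, and 1.46-fold lower at 6 h. Id2, a repressor of bHLH factors, was 2.88-fold higher with the estradiol label at 6 h, at 5532 against 1918 units, and 1.41-fold lower at 24 h. Its relative Id1 was 1.12-fold higher at 24 h and 1.73-fold lower at 6 h. The remaining genes, Avp, Aanat and Mtnr1a, had signals of at most 549 units and passed the rule in neither comparison. For Aanat at 24 h and Mtnr1a at 6 h the dimmer array was at its floor, so their folds are lower bounds, and Mtnr1a was at the floor on both arrays at 24 h.

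**Figure D3:**
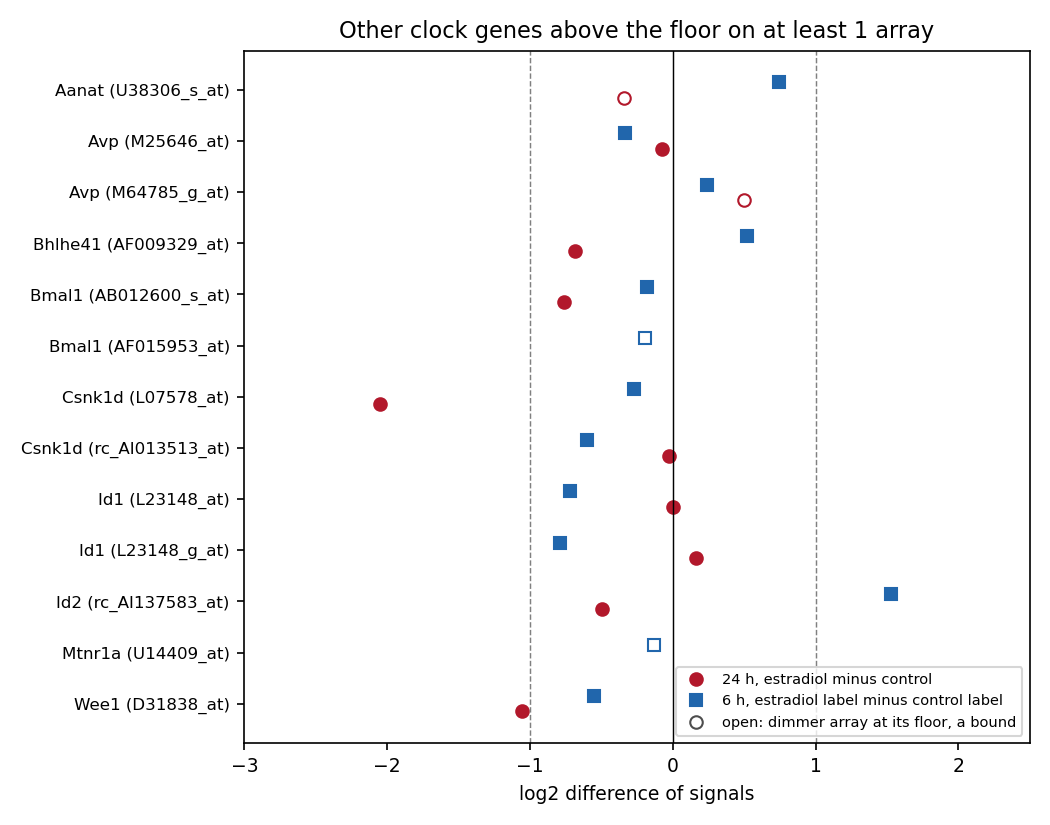
Log2 difference (horizontal axis) of each other clock probe set above the floor on at least 1 array, at 24 h (circles) and at 6 h (squares); open marks are bounds and a missing mark means that both arrays were at the floor. The differences past 2-fold are Csnk1d by 1 of its probe sets, at -2.05, and Wee1, at -1.06, at 24 h, and Id2, at 1.53, at 6 h.

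Likeness to the clock genes was measured as the distance between log2 signals over the 4 arrays, each centred on its mean, among 2646 other genes above the floor on all 4. Per2 and Nr1d2 lay 0.27 apart, and for both the nearest other gene was Mmp11, a matrix protease, at 0.24 and 0.12. Ech1, a fatty acid oxidation enzyme, followed at 0.36 from Per2 and 0.28 from Nr1d2, then Atp2a3, a calcium pump, at 0.46 from Per2 and Cpe, a peptide-processing enzyme, at 0.32 from Nr1d2. Dbp lay 0.52 from Nr1d2 and was closer to Igf1r, the receptor of insulin-like growth factors, at 0.22, Pdlim3 at 0.24 and Hivep2 at 0.26. Nr1d1 lay 0.73 from Dbp and was closer to Arhgap1 at 0.18, Lbh at 0.21 and Col4a5, a basement membrane collagen, at 0.23. Bhlhe40 was at least 2.44 from each of the 4. With 4 arrays many genes can lie this close, and for each of Per2, Nr1d1, Nr1d2 and Dbp the nearest gene was outside the clock list.

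Glucocorticoids and stimuli that induce immediate-early genes also act on clock genes, so both groups were read on the same arrays. Of 10 measured glucocorticoid-responsive genes, 1 was higher and 2 lower at 24 h, and 1 higher and 5 lower at 6 h. Klf9, a transcription factor induced by glucocorticoids, had the signs of Dbp: it read 619 against 1349 units at 24 h and 1353 against 530.2 at 6 h, 2.18-fold lower and 2.55-fold higher. Sgk1, a kinase, had the opposite signs, 2.21-fold higher at 24 h and 3.18-fold lower at 6 h. Dusp1, a phosphatase, was lower at both, 3.83-fold and 2.37-fold. The median log2 difference of the 10 genes was 0.04 at 24 h and -1.04 at 6 h, beside -0.17 and -0.06 for all genes. Of all genes, 8.68% were higher and 8.04% lower at 24 h, and 6.47% and 5.08% at 6 h. The part of this group in the clock differences was not tested. Of 16 measured immediate-early genes 2 were higher and 1 lower at 24 h. With the estradiol label at 6 h 9 were lower, against 5.08% of all genes, and 0 higher. The 6 h signs of both groups rest on labels that the estrogen targets go against. The part of the immediate-early genes in the clock differences was not tested either.

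Markers of other cells were read beside the clock genes. Of all genes, 8.68% were 2-fold higher and 8.04% lower at 24 h, and 6.47% and 5.08% at 6 h. In lists this short, a single call or a count of 0 does not set a cell type apart. The 6 h directions rest on labels that the estrogen targets go against. Epithelial markers, summed, were 1773 units with the control label and 652 with the estradiol label at 6 h, where 3 of 6 were lower and 0 higher. Smooth muscle markers passed the 2-fold rule for 0 of 8 genes at either time. Endometrial stroma markers were lower at 24 h for 2 of 4 genes, with sums of 5869 against 8147 units, and passed for 0 at 6 h, with 5872 against 3576 units. Macrophage and leukocyte markers were lower for 3 and higher for 2 of 8 at 24 h, and lower for 1 at 6 h, and endothelial markers were lower for 1 of 4 at each time. Of adipocyte markers 1 of 2 measured genes was lower at 24 h, with a median log2 difference of -1.41 after flooring, and Plin1 was not above the floor on any array. The sums were 47.1 units with estradiol and 584 without it at 24 h. The lower sum was under that array's floor of 89.5 units for a single probe set, so the sums give no fold. Skeletal muscle markers were higher for 1 of 3 genes at 24 h and lower for 1 at 6 h, and blood markers passed for 0 of 2 at either time.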

How the data were processed

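Probe set intensities were used as the authors deposited them in the value table of the series, 1 column per array. The submitters' processing notes name MAS5, a method that subtracts mismatch signal, without a version. Each column had a 2% trimmed mean of 500. The table holds 8799 probe sets; 59 Affymetrix controls were left out, and 7018 had 1 gene symbol in a platform table, 308 several and 1473 none. The gene identifiers of all 11 clock probe sets gave the same symbol in RefSeq. After scaling to that mean, signals under an array's 40th percentile (89.5 to 108 units), its floor, were set to it, and log2 was taken. A difference was called at 2-fold if the brighter array exceeded its floor; where the dimmer one did not, the fold is a lower bound ("at least"). A gene was read by its brightest probe set. Of 4736 genes, 3619 were above the floor on at least 1 array. The number of arrays limits the precision.

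The 8 genes and all gene lists were chosen with earlier results of these data known. Named were the 8 genes, every further clock gene on the array, 4 estrogen targets, the 3 largest 24 h differences of the glucocorticoid list and the 3 genes nearest in pattern to each of Per2, Nr1d1, Nr1d2 and Dbp. The motif CACGTT was added after the sequences were seen. The fit of both times used limma 3.58.1 in R 4.3.3, over probe sets above the floor on at least 1 array; other steps used Python 3.11.15. The fold rule and the fit were run on simulated data, in which changed probe sets moved in the same direction at both times. The noise there was chosen and not taken from these arrays, so the simulation gives no error rate for them. Alternatives covered scaling, floor, fold rule, probe sets and the control used.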

Additional observations from a re-analysis of the deposited data

Results flagged for a closer look

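Several differences between estradiol and control had opposite directions at 24 h and at 6 h, each at least 2-fold. Each time has 1 pair of pools, and the difference between the times was not tested. The signs rest on the 6 h labels, which Igf1, Pgr, S100g and Hsd11b2 go against; with the 6 h sign turned, each gene below has the same direction at both times. The difference at 24 h minus that at 6 h, on the log2 scale, was -3.51 for Per2, -3.04 for Nr1d1, -3.13 for Nr1d2 and -3.53 for Dbp. It was 6.45 for Igf1, 4.24 for Pgr, 4.86 for S100g and 5.98 for Hsd11b2. Among the genes named for a pattern near that of the clock genes, which fixes the sign, it was -3.39 for Ech1, -3.22 for Atp2a3, -3.07 for Arhgap1, -3.30 for Lbh, -2.68 for Col4a5, -3.71 for Igf1r, -3.25 for Pdlim3 and -3.26 for Hivep2.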

How the results depend on the processing

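The count of 4 genes lower and 0 higher at 24 h stayed within 1.5 times under each setting of scaling, floor, fold rule and probe sets. The share of all genes lower ranged from 1.71% with the 3-fold rule to 22.5% with the 1.5-fold rule. Against the mean of both controls 3 were lower, beside 5.22% of all genes. That mean includes the array labelled control at 6 h, whose label the estrogen targets go against. There Nr1d1 lost the call at -0.50, and the median of the 7 genes went from -1.28 to -0.67. Nr1d1 also lost it under the 3-fold rule. The count was 0 lower, beside 9.28% of all genes, with the array labelled control at 6 h in place of the 24 h control. There Nr1d1 changed sign to 0.28. At 6 h the counts were 2 higher and 0 lower with a pseudocount of 50, beside 6.6% and 5.89% of all genes. They were the same with the 3-fold rule, beside 2.32% and 1.52%. With a floor at the 60th percentile 0 were lower, beside 4.07%. With the 24 h control in place of the array labelled control at 6 h the counts were 0 and 0, beside 7.52% and 2.13% of all genes. There Per2 and Nr1d2 changed sign, to -0.44 and -0.17. Between the arrays labelled control, 0 genes were lower with a common median, a floor at the 60th percentile or a pseudocount. Of all genes, 8.4%, 7.61% and 9.81% were lower in that order. With the 3-fold rule 0 were higher and 0 lower, beside 2.02% and 4.31%. Between the arrays labelled estradiol, 1 was higher with the 1.5-fold rule, beside 13.8% of all genes. With the 3-fold rule 3 were lower, beside 2.07%. Scaling to a common median moved the log2 differences of all genes by 0.14 at 24 h and by 0.22 between the arrays labelled estradiol. The limma fit called 0 probe sets, of the clock or in all, under each of its 8 alternatives. Hlf lies near the floor, which limits its differences. With time as a term, the limma fit compares treatment, by the labels as given, within each time and scan day.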
